A study of Mus musculus with 6 samples.

Results

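Intestinal glucose carriers were examined in the gut epithelium of mice in which the nuclear receptor corepressor NCoR1 and a partner corepressor were targeted for deletion in the gut lining. The genes are Slc5a1, Slc5a4a, Slc5a4b, Slc5a9 and Slc5a11, which encode SGLT-family sodium-coupled carriers, Slc2a2, which encodes the basolateral carrier GLUT2, and Slc2a1, which encodes the ubiquitous carrier GLUT1. They were chosen by symbol, each matched to its Ensembl mouse identifier, and all 7 were found among the 55450 identifiers of the count table. All 7 also passed the filter on low counts, which left 15028 genes for testing.

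Polyadenylated RNA was sequenced from epithelium scraped off the small intestine with a glass slide, and reads were counted per gene. Each library came from 1 mouse, and there were 3 control and 3 knockout mice. Both groups were homozygous for floxed alleles of Ncor1 (Ncor1loxP/loxP) and of the partner corepressor gene, and the labels describe tamoxifen injection at 15 mg per 100 g body weight for 5 days at 8 to 9 weeks of age for these mice, with placement in metabolic cages at day 21. Control mice were Vil1-Cre-ERT2-, and knockout mice were Vil1-Cre-ERT2+, that is, they carried a tamoxifen-inducible Cre recombinase under the villin 1 promoter, which is active in epithelial cells of the intestine. Only the knockout mice carried the transgene, so its effects and those of the deletion cannot be told apart. The labels do not give the section of the small intestine, the sex of the mice or the day of collection. Each library is called by its genotype and the number of its mouse.

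Dietary glucose is taken up from the gut lumen by SGLT1, which moves it across the brush border together with sodium, and leaves the enterocyte through GLUT2 in the basolateral membrane. The sodium gradient that drives SGLT1 is maintained by the sodium pump, the Na+/K+-ATPase. Slc5a4a and Slc5a4b encode the mouse forms of SGLT3, a relative of SGLT1 whose human form is described as a glucose sensor. Slc5a9 encodes SGLT4, a carrier of mannose and related sugars, and Slc5a11 encodes a sodium-coupled carrier of myo-inositol. GLUT1 is found at low level in absorptive enterocytes and at high level in human red blood cells and in the endothelium of barrier tissues. The comparison of knockout with control asks how these transcripts differ when the corepressors are removed from the epithelium, and the series title names carbohydrate transport as its theme, so the members are not independent evidence of a direction.

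Library totals ran from 23476031 to 46835165 counts. Ncor1 stood at 99.3 to 140.4 CPM (a gene's counts relative to the library total, put on a common scale and corrected for library composition by TMM, a trimmed mean) in controls and at 22.5 to 36.4 CPM in knockouts (log2 fold change -2.06, edgeR adjusted p = 0.00045). Of 8 enterocyte markers, all were detected in every library, 2 rose, 2 fell and 4 were not called. Over all tested genes, 17.3% were called higher, 18.3% lower and 35.6% in either direction. The summed level of the 8 markers was 43645 to 62387 CPM in controls and 83484 to 168623 CPM in knockouts. Those that rose were the fatty acid-binding protein gene Fabp2, at 12931 ± 4658 CPM in controls and 59597 ± 23895 CPM in knockouts, and the apolipoprotein gene Apoa4, at 16306 ± 4204 and 39323 ± 13092 CPM, and they make up most of the higher sum. Vil1, the gene whose promoter drives the Cre, fell and went from 2685 ± 303 to 1170.0 ± 339 CPM (SD, n = 3; edgeR adjusted p = 0.011). The summed level of 3 ileal markers was at most 22.1 CPM in any library, and 4 proximal markers summed to 129 to 147 CPM in controls and 164 to 174 CPM in knockouts. Of these 4, only the iron exporter gene Slc40a1 was called, at 1.70 ± 0.441 CPM in controls and 23.5 ± 11.1 CPM in knockouts, whereas Gata4 measured 114 CPM on average in both. In bulk epithelium, fewer cells of a type and less RNA per cell cannot be told apart. Nothing in the labels says that the mice of a group came from separate litters, and the p-values measure the spread between these animals.

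Of the 7 carrier genes, 5 fell, none rose and 2 were not called (edgeR quasi-likelihood test, Benjamini-Hochberg adjustment over all 15028 genes, threshold 0.05). For comparison, 18.3% of all tested genes were called lower, 17.3% higher and 35.6% in either direction. The median log2 fold change of the 7 was -1.96, and that of all tested genes was -0.06. In the same 5 genes every knockout library lay below every control library, as was the case for 26.4% of all tested genes, and the groups did not overlap, in either direction, in 50.3%. Those 5 calls held in all 17 alternative settings tried.

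SGLT1 (Slc5a1, ENSMUSG00000011034, mm10 chromosome 5, 33104219 to 33162870, plus strand, 15 exons) was by far the most abundant carrier. It measured 5535, 6032 and 5333 CPM in the control mice 482, 483 and 486, against 1455, 1532 and 1351 CPM in the knockout mice 423, 476 and 477. The groups were separated by a wide gap, and the animals within a group differed little, with deviations from the group mean of at most 0.10 on the log2 CPM scale. Slc5a1 fell by a log2 fold change of -1.96 (SE 0.24, edgeR adjusted p = 0.00053), or 3.90-fold. It took 0.583% to 0.710% of all counts of a control library and 0.10% to 0.142% of those of a knockout library. By mean CPM it was gene number 7 of all tested genes in controls and number 86 in knockouts, and 5.65% of tested genes had a lower log2 fold change.

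GLUT2 (Slc2a2, ENSMUSG00000027690, chromosome 3, 28697903 to 28731359, plus strand, 11 exons) is the exit route for absorbed glucose. Slc2a2 measured 601, 755 and 467 CPM in the control mice 482, 483 and 486, against 93.9, 79.9 and 105 CPM in the knockout mice 423, 476 and 477. All knockout libraries were low, and the controls spread more widely than those of Slc5a1. Slc2a2 fell by a log2 fold change of -2.71 (SE 0.26, edgeR adjusted p = 0.00014), or 6.55-fold, and 2.98% of tested genes had a lower value. Its place by mean CPM went from number 188 to number 1767.

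The stretches of genome before the start sites of Slc5a1 and Slc2a2, the apical and the basolateral glucose carrier that fell together, are printed here from RefSeq (GRCm38.p6, 250 bases, 5′ to 3′ on the gene's strand). Capitals mark matches to motifs searched on both strands. The core promoter motifs were the TATA box, searched with the letters TATAAA, and the GC box that the Sp1 factor binds, searched with the letters GGGCGG. A further motif was the hexamer that many nuclear receptors recognise, searched as AGGTCA. The last motif was the E-box of basic helix-loop-helix factors, searched with the letters CACGTG.
Slc5a1, chr5:33103969-33104218, plus strand: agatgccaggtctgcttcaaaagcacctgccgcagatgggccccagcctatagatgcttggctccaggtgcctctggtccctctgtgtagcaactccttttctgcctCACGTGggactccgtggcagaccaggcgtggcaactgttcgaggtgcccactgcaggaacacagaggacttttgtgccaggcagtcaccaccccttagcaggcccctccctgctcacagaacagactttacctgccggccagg
Slc2a2, chr3:28697653-28697902, plus strand: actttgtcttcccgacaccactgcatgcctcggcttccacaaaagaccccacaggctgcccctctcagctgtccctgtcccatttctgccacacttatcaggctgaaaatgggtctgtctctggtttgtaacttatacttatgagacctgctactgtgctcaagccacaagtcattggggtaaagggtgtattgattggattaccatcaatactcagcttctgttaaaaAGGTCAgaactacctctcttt
Slc5a1 holds 1 match, the E-box CACGTG from 143 to 138 bases before the start. Slc2a2 also holds 1, the hexamer AGGTCA from 21 to 16 bases before the start, and no matches overlap. Of 32851 promoters in the table, 6.0% hold CACGTG and 14% hold AGGTCA. The latter hexamer was also present before the RefSeq start of Slc5a11, so that 2 of the 6 carrier promoters in the table hold it. That stretch (chr7:123214616-123214865) runs past the GENCODE start of the gene at 123214780. The match, 43 to 38 bases before the RefSeq start, lies inside the GENCODE gene. A match is a description of letters, and no binding was measured.

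The neighbouring genes Slc5a4a and Slc5a4b moved apart. Slc5a4a (SGLT3a, ENSMUSG00000020229, chromosome 10, 76147451 to 76189265, plus strand) measured 176, 225 and 204 CPM in the control mice 482, 483 and 486, against 37.6, 40.4 and 56.8 CPM in the knockout mice 423, 476 and 477. Every knockout library was low, and the log2 fold change was -2.17 (SE 0.23, edgeR adjusted p = 0.00026). Slc5a4b (SGLT3b, ENSMUSG00000020226, chromosome 10, 76057494 to 76110961, minus strand) measured 229, 329 and 319 CPM in these control mice, against 228, 255 and 323 CPM in these knockout mice. The groups of Slc5a4b overlapped across almost their whole range. Its log2 fold change was -0.12 (SE 0.24, 95% interval -0.66 to 0.41, edgeR adjusted p = 0.71). With scaling by library size alone, which takes the median of all genes from -0.06 to -0.49, Slc5a4b was called lower at -0.57.

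Reads of the pair can be told apart over nearly all of their length. Their coding sequences share 1562 of 1963 aligned bases (79.6% identity, GENCODE M21), which is the highest among all pairs of the 7 genes. Slc5a1 shares 72.7% with Slc5a4a and 73.0% with Slc5a4b. Of 2006 windows of 50 bases in the Slc5a4a transcript, 1 was found in the Slc5a4b transcript, and 31 of 3153 windows of the Slc5a4b transcript were found in transcripts of other genes. Of 1956 windows of 100 bases in Slc5a4a none was found in a transcript of any other gene. The read length is not given in the sources used here. Any link between differences in coding sequence and the change in level was not tested. The 120 aligned coding bases where the pair differs most are printed to show how their reads can be told apart. The 39 differing bases are in capitals (coding bases 1288 to 1407 of each).
Slc5a4a: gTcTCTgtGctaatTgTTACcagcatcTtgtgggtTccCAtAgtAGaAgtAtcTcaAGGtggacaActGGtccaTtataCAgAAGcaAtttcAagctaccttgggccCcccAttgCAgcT
Slc5a4b: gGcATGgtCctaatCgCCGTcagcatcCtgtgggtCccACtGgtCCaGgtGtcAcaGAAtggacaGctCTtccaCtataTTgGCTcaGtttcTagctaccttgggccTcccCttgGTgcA
Within single libraries the contrast was sharp. Slc5a4a had 77.0, 68.3 and 64.0 counts per 100 counts of Slc5a4b in controls 482, 483 and 486 and 16.5, 15.8 and 17.6 in knockouts 423, 476 and 477. Such a ratio does not depend on how libraries are scaled. The ratio of the pair fell by 2.06 on the log2 scale (SE 0.23, limma-trend adjusted p = 4.2e-05), a call that held with each library left out, and of all genes set against Slc5a4b in the same way 25.6% were called, and 9.57% were called lowered. This pair was picked for that test after its values were seen.

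Slc5a11 (ENSMUSG00000030769, chromosome 7, 123214780 to 123273253, plus strand, 17 exons), the myo-inositol carrier gene, had the largest log2 fold change of the 7. It measured 157, 220.2 and 192 CPM in the control mice 482, 483 and 486, against 15.7, 7.78 and 13.6 CPM in the knockout mice 423, 476 and 477. Even the highest knockout library was far below the lowest control. The log2 fold change was -3.94 (SE 0.31, edgeR adjusted p = 5.0e-05), or 15.3-fold lower. The knockout levels rest on 435, 234 and 237 counts, and counting error alone is at most 6.54% of a count.

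Slc5a9 (SGLT4, ENSMUSG00000028544, chromosome 4, 111875375 to 111902918, minus strand) was a scarcer member. Its levels were 77.6, 59.3 and 52.0 CPM in the control mice 482, 483 and 486, against 13.6, 21.2 and 17.4 CPM in the knockout mice 423, 476 and 477. The groups did not overlap, and the log2 fold change was -1.86 (SE 0.24, edgeR adjusted p = 0.00066).

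GLUT1 (Slc2a1, ENSMUSG00000028645, chromosome 4, 119108711 to 119137983, plus strand) was the scarcest member. It measured 11.9, 7.56 and 8.38 CPM in the control mice 482, 483 and 486, against 15.9, 9.91 and 6.61 CPM in the knockout mice 423, 476 and 477. The knockout libraries enclosed the range of the controls, and the log2 fold change was 0.22 (SE 0.33, 95% interval -0.52 to 0.96, edgeR adjusted p = 0.62). Its sign turned with library-size scaling (-0.18) and without knockout 423 (-0.13). The 5 erythrocyte genes of the marker list all rose, beside 17.3% of all tested genes called higher. They summed to 7.95 to 22.2 CPM in controls and 35.5 to 543 CPM in knockouts. The globin gene Hbb-bs was highest in knockout 477, at 324 CPM, the library in which Slc2a1 was lowest. In knockouts 423 and 476 Hbb-bs measured 80.0 and 23.5 CPM. Of 4 endothelial markers, 2 were tested and none was called, and they summed to 1.64 to 3.61 CPM in controls and 0.633 to 3.55 CPM in knockouts. The part of these cells in the Slc2a1 level was not tested. An antisense gene, Gm12868, overlaps exons of Slc2a1, and it held at most 1 count in any library.

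**Figure D1:**
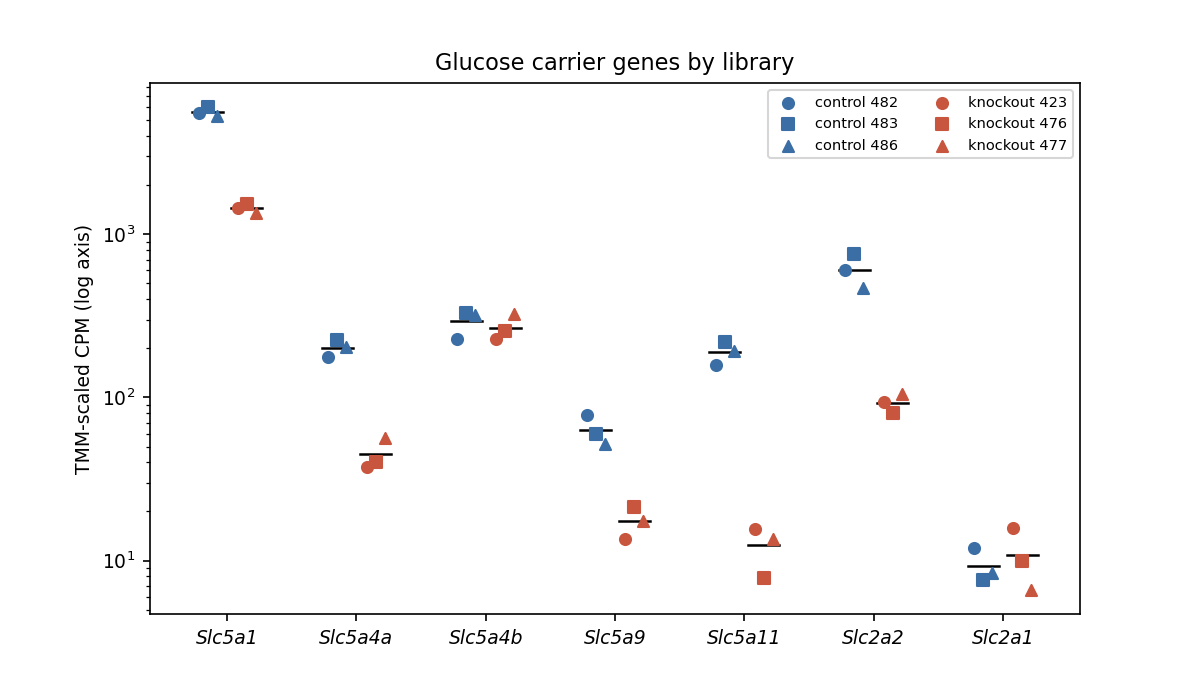
TMM-scaled CPM (log axis) of the 7 glucose carrier genes in each library, controls in blue and knockouts in red, with a black bar at each group mean. Slc5a1, Slc5a4a, Slc5a9, Slc5a11 and Slc2a2 show separate groups, whereas the groups of Slc5a4b and Slc2a1 overlap.

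The animals of a group ordered differently from gene to gene. Among controls, 483 was highest for Slc5a1, Slc5a4a, Slc5a4b, Slc5a11 and Slc2a2, and 482 was highest for Slc5a9 and Slc2a1. Among knockouts, 477 was highest for Slc5a4a, Slc5a4b and Slc2a2, 476 for Slc5a1 and Slc5a9, and 423 for Slc5a11 and Slc2a1. The widest spread within a group was that of Slc2a1 in knockouts, from -0.61 in knockout 477 to 0.64 in knockout 423 around the group mean (log2 CPM). Slc5a11 in knockouts came next, from -0.61 in knockout 476 to 0.41 in knockout 423.

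Levels of different genes were compared per kilobase of annotated exon. In controls Slc5a1 came first at 1373 ± 87.6 CPM per kilobase (SD, n = 3), followed by Slc2a2 (106 ± 25.0), Slc5a4a (98.2 ± 11.9), Slc5a4b (91.4 ± 17.3), Slc5a11 (68.8 ± 11.5), Slc5a9 (12.2 ± 2.55) and Slc2a1 (2.65 ± 0.655). The library ranges of Slc2a2, Slc5a4a and Slc5a4b overlapped, as did those of Slc5a4b and Slc5a11, so their order is not resolved by these 3 animals. In knockouts Slc5a1 was again first at 352 ± 22.1 CPM per kilobase, and Slc5a4b was second at 83.8 ± 15.2. Slc5a4a (21.9 ± 5.04) and Slc2a2 (16.1 ± 2.14) followed, with ranges of 18.3 to 27.6 and 13.9 to 18.2 that met without overlapping. Slc5a11 (4.49 ± 1.5), Slc5a9 (3.35 ± 0.737) and Slc2a1 (3.08 ± 1.34) came last with overlapping ranges. The order of the means was the same with the length of the longest transcript. It was also the same with library-size and median-of-ratios (RLE) scaling. Scaling multiplies all genes of a library by the same factor, so it could hardly alter that order. The annotated exons of Slc5a4a (2055 bases, 1968 of them coding) hold little beyond the coding sequence, unlike those of Slc5a4b (3202 bases, 1980 coding), and levels per length rest on these models.

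The summed level of the 7 genes per kilobase was 1686, 1907 and 1662 CPM in controls 482, 483 and 486 and 473, 496 and 486 CPM in knockouts 423, 476 and 477. Slc5a1 made up 80.0%, 77.1% and 78.2% of that sum in the controls and 74.9%, 75.2% and 67.8% in the knockouts. The share of Slc5a4b was 4.24%, 5.40% and 6.0% in the controls and 15.0%, 16% and 20.7% in the knockouts. Slc5a4b thus took a larger part of a smaller total, at a level of its own that was not called different. The share of Slc2a2 was 5.98% ± 1.01 in controls and 3.33% ± 0.481 in knockouts, and that of Slc5a11 was 3.92% ± 0.471 and 0.931% ± 0.328 (SD, n = 3). The shares sum to the whole, so they do not move independently, and they were not tested.

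**Figure D2:**
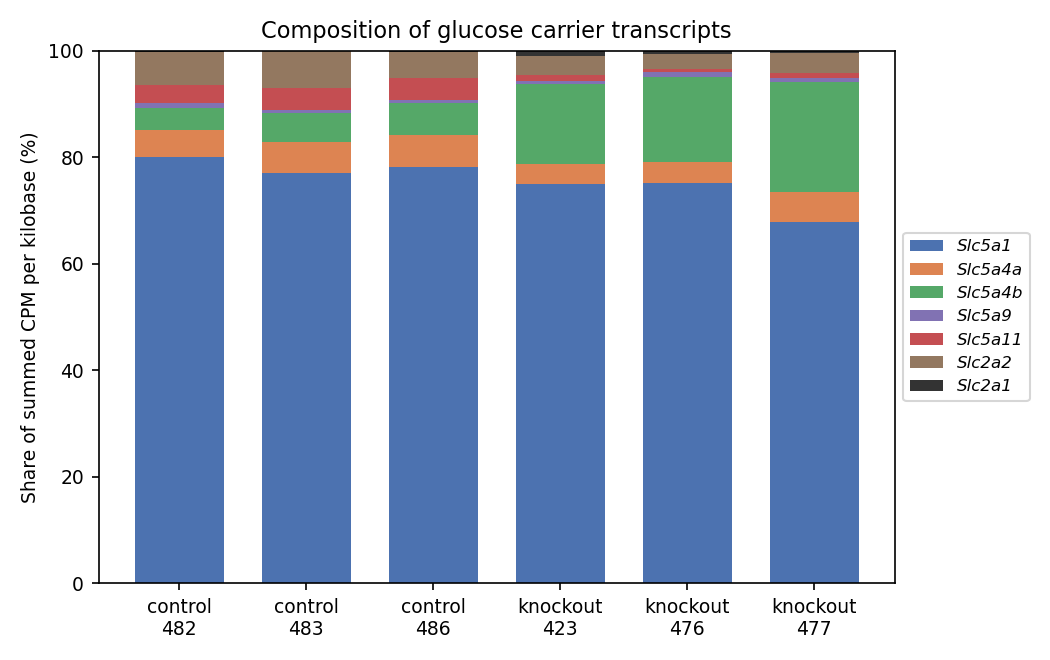
Share of each glucose carrier gene in the summed CPM per kilobase of the 7 genes (percent, linear axis from 0), one stacked bar per library. Slc5a1 is the largest part of every bar, and the Slc5a4b part is 15.0% to 20.7% in knockouts against 4.24% to 6.0% in controls.

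Each carrier was also set against Slc5a1 in the same library, which asks whether it changed by a different factor than SGLT1. Slc5a4b had 4.14, 5.46 and 5.99 counts per 100 counts of Slc5a1 in controls 482, 483 and 486 and 15.7, 16.6 and 23.9 in knockouts 423, 476 and 477. This rise relative to Slc5a1 was 1.84 on the log2 scale (SE 0.26, limma-trend adjusted p = 5.7e-05). Slc2a1 rose relative to Slc5a1 by 2.12 (SE 0.33, limma-trend adjusted p = 0.00012), and Slc5a11 fell by 2.02 relative to it (SE 0.29, limma-trend adjusted p = 6.6e-05). Since Slc5a1 itself fell, 85.3% of all genes were called different relative to it, 83.3% raised and 2.02% lowered.

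GLUT2 had 10.8, 12.5 and 8.75 counts per 100 counts of Slc5a1 in controls 482, 483 and 486 and 6.46, 5.22 and 7.74 in knockouts 423, 476 and 477. Its ratios were lower in the knockouts without overlap, but the gap between the groups was narrower than the spread among the controls. Slc2a2 fell by 0.73 relative to Slc5a1 (SE 0.25, limma-trend adjusted p = 0.017), and the call was lost without control 483 (-0.61, adjusted p = 0.077) or without knockout 476 (-0.58, adjusted p = 0.090). Slc5a4a (-0.22, SE 0.24, limma-trend adjusted p = 0.40) and Slc5a9 (0.10, SE 0.24, adjusted p = 0.69) were not called different from Slc5a1 in their change. That does not show that they changed by an equal factor, and with the trend in exon length and GC content removed Slc5a4a was called lowered relative to Slc5a1 (-0.50, adjusted p = 0.046).

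**Figure D3:**
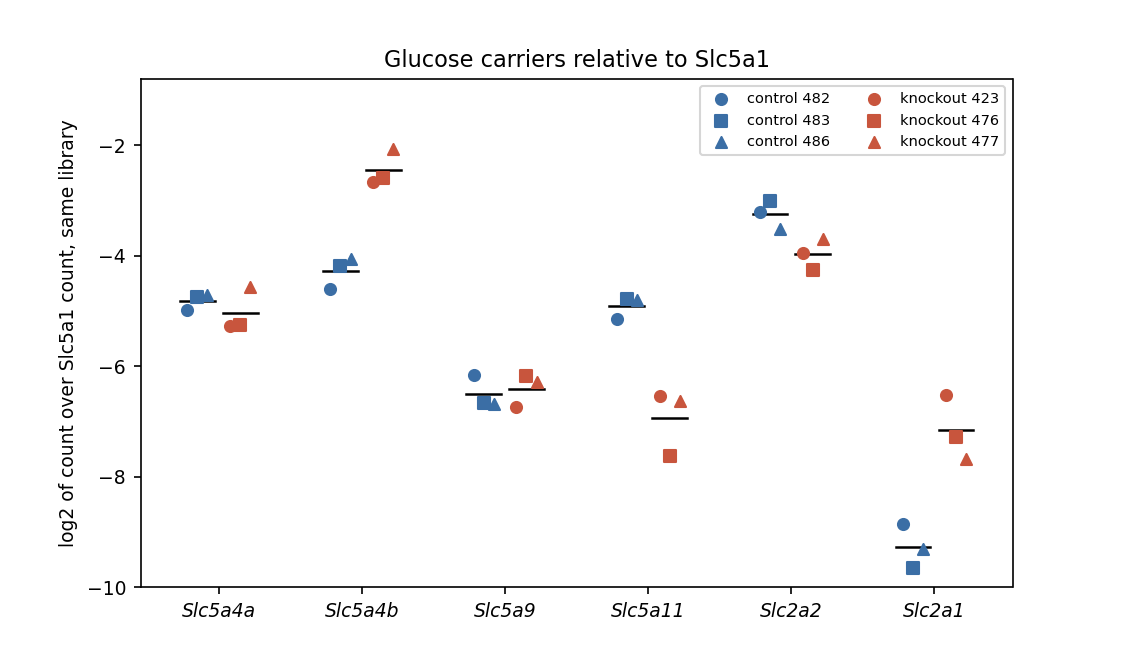
Log2 of the count of each carrier over the count of Slc5a1 in the same library (0.5 added to both), controls in blue and knockouts in red, with a black bar at each group mean. Slc5a4b and Slc2a1 are higher in every knockout than in every control, Slc5a11 and Slc2a2 are lower, and Slc5a4a and Slc5a9 overlap.

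The rest of both carrier families was read from lists. Of 8 other SLC5 genes, 4 were tested, 2 fell, none rose and 2 were not called, at a median log2 fold change of -1.84. Those that fell were Slc5a8 (-7.53, SE 0.58), a sodium-coupled monocarboxylate carrier with 2861, 1126 and 5178 counts in the controls and 19, 5 and 3 counts in the knockouts, and Slc5a12 (-3.56, SE 0.36), its lower-affinity relative. Of 10 other SLC2 genes, 7 were tested, 4 fell, none rose and 3 were not called, at a median of -1.33. They were Slc2a7 (-2.93), Slc2a9 (-1.33), which encodes a urate carrier, the fructose carrier gene Slc2a5 (-1.42) and Slc2a10 (-2.32), whose call was lost without control 482 (edgeR adjusted p = 0.085) or knockout 423 (edgeR adjusted p = 0.050). The counts of both lists are to be read beside the 18.3% of all genes called lower.

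The sodium pump sets the gradient that drives the SGLT carriers, and a beta subunit, encoded by Atp1b1, carries the pump to the membrane. Atp1b1 measured 2510.0, 2854 and 2324 CPM in the control mice 482, 483 and 486, against 896, 898 and 1076 CPM in the knockout mice 423, 476 and 477. All knockout libraries were below all controls, and the log2 fold change was -1.42 (SE 0.24, edgeR adjusted p = 0.0024). Set against Slc5a1 in the same library, Atp1b1 was not called different (0.54, SE 0.26, limma-trend adjusted p = 0.073), which does not show an equal factor. Pump genes of lower level did not all go the same way. Another beta subunit gene, Atp1b3, was not called (16 ± 1.19 CPM in controls and 17.5 ± 4.91 CPM in knockouts, edgeR adjusted p = 0.71). Fxyd3, which encodes a small partner of the pump, was not called either (8.12 ± 1.94 and 12.4 ± 2.84 CPM, edgeR adjusted p = 0.10). Even so, every knockout library of Fxyd3 was above every control. The groups did not overlap, in either direction, in 50.3% of all tested genes. These pump genes were picked after their values were seen.

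Of 23 genes known as regulators of intestinal sugar carriers or as parts of sugar sensing, 20 were tested, 7 fell, none rose and 13 were not called, at a median log2 fold change of -0.71. Of all tested genes, 18.3% were called lower, 17.3% higher and 35.6% in either direction. With library-size scaling 11 of the list fell, and 4554 of all 15028 tested genes were called lower. The thyroid hormone receptor genes Thrb (-2.22, SE 0.30) and Thra (-0.97, SE 0.20) fell, as did Mlxipl (-1.59, SE 0.36), which encodes the carbohydrate-response factor ChREBP, Pdzk1 (-1.02, SE 0.24), a scaffold of brush border carriers, and Sp1. The calls of Thra and Sp1 were lost when the trend in exon length and GC content was removed (edgeR adjusted p of 0.099 and 0.12), and that of Sp1 was lost without control 482 or knockout 477. The taste-signalling genes Gnat3, with 96, 27 and 100 counts in controls 482, 483 and 486 and 0, 1 and 0 in knockouts 423, 476 and 477, and Trpm5 (-4.20, SE 0.63) fell too. Both are known from tuft cells, whose 4 markers all fell, from a summed 46.4 to 154 CPM in controls to 0.460 to 3.94 CPM in knockouts, with Pou2f3 at 0 in knockouts 476 and 477. The part of tuft cells in the fall of Gnat3 and Trpm5 was not tested.

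Several factors known to bind carrier promoters were not called, and the following were picked after their values were seen. Hnf4g went from 286 ± 34.2 to 281 ± 21.0 CPM (SD, n = 3), a difference of -0.03 on the log2 scale (SE 0.21), Hnf4a from 652 ± 73.0 to 573 ± 108 CPM (-0.19, SE 0.24) and Gata4 from 114 ± 8.17 to 114 ± 17.6 CPM (0.00, SE 0.20). The libraries of both groups overlapped for all 3 transcripts, and protein was not measured.

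Other carriers of the brush border that use an ion gradient fell in part. Of 15 genes, 14 were tested, 7 fell, 1 rose and 6 were not called, at a median log2 fold change of -1.10. Over all tested genes 18.3% were called lower and 17.3% higher. With library-size scaling 11 of the list fell, beside 4554 of all 15028 tested genes. The peptide carrier gene Slc15a1 (-2.16, SE 0.28), the nucleoside carrier gene Slc28a1 (-4.12, SE 0.22), the dicarboxylate carrier gene Slc13a2 (-4.23, SE 0.37), the imino acid carrier gene Slc6a20a (-1.51, SE 0.23) and the glutamate carrier gene Slc1a1 (-4.15, SE 0.78) fell, as did Slc13a1 and Slc6a8. The calls of Slc13a1 and Slc6a8 held in 2 and 1 of the 6 fits that left out a library, and both were lost when the trend in exon length and GC content was removed (-0.93 and -0.43, edgeR adjusted p of 0.065 and 0.33). The sodium-proton exchanger gene Slc9a3 was the exception. It measured 203, 158 and 126 CPM in the control mice 482, 483 and 486, against 672, 1051 and 888 CPM in the knockout mice 423, 476 and 477 (log2 fold change 2.43, SE 0.28, edgeR adjusted p = 0.00037). Set against Slc5a1, the peptide carrier gene Slc15a1 was not called different (-0.23, SE 0.27, limma-trend adjusted p = 0.45), which does not show an equal factor. Slc28a1 (-2.15), Slc13a2 (-2.27) and Slc1a1 (-2.33) were called lowered relative to Slc5a1. Several others of the list, among them Slc9a3 (4.39), were called raised, as were 83.3% of all genes.

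Inside the enterocyte, glucose is trapped by hexokinases and released by glucose-6-phosphatase. Of 8 genes of these steps, 7 were tested, 2 rose, 1 fell and 4 were not called, at a median log2 fold change of -0.26. Among all tested genes, 17.3% were called higher, 18.3% lower and 35.6% in either direction. G6pc, the catalytic subunit of glucose-6-phosphatase, measured 23.8 ± 11 CPM in controls and 65.0 ± 25.5 CPM in knockouts, and it rose (log2 fold change 1.45, SE 0.37, edgeR adjusted p = 0.016), its ubiquitous relative G6pc3 rose (0.66, SE 0.23) and Hk1 fell (-1.03, SE 0.32). With the trend in exon length and GC content removed, Hk1 was no longer called (-0.33, edgeR adjusted p = 0.30). None of these calls was made without control 482 or without knockout 477. Without control 483 or knockout 423, 1 gene rose and none fell, and with library-size scaling none rose and 2 fell.

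**Figure D4:**
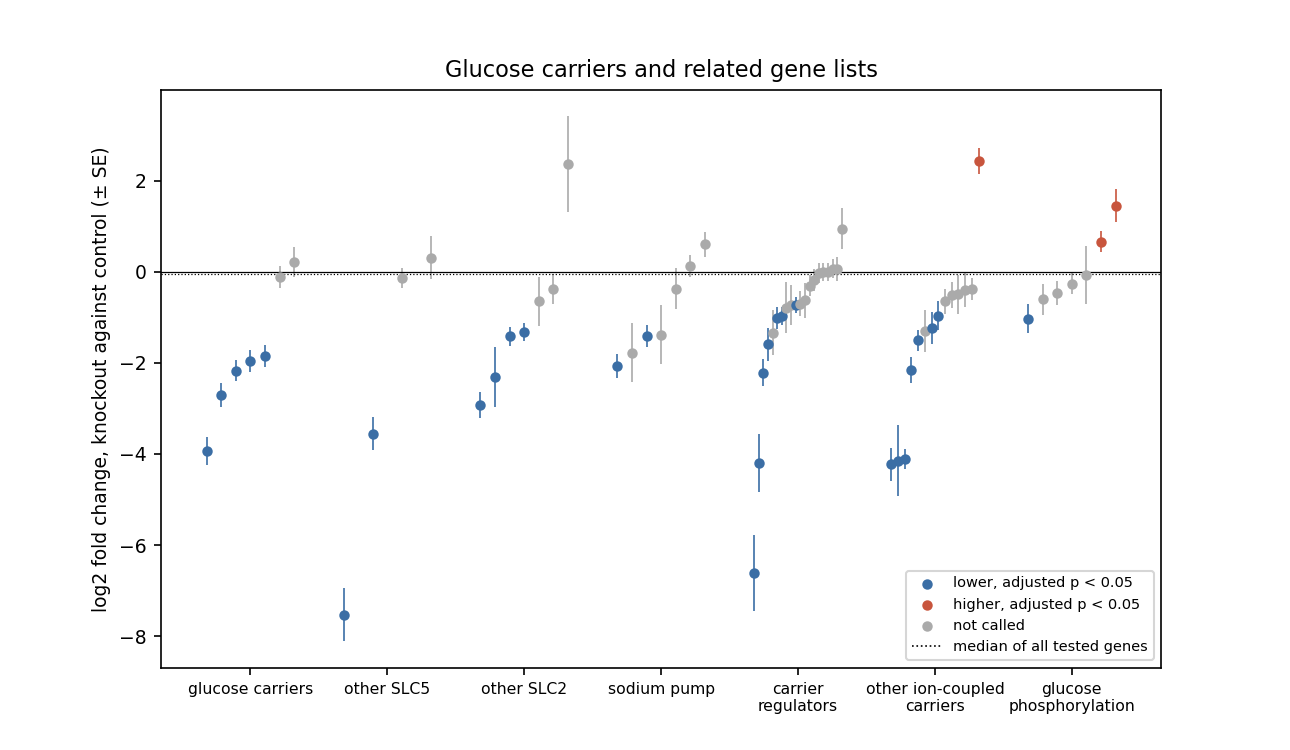
Log2 fold changes of knockout against control (± SE) for the tested genes of each list, blue for genes called lower, red for genes called higher and grey for genes not called, with a dotted line at the median of all tested genes (-0.06). In the glucose carriers 5 of 7 points are blue, and the Gnat3 point, the lowest of the carrier regulators, rests on 1 count over the knockouts.

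Transcripts whose profile over the 6 libraries was most like that of a carrier were ranked among 6804 named genes of at least 10 CPM, by the root-mean-square difference of mean-centred log2 CPM. For Slc5a1 the nearest were Epb41l3 (0.0675), Pim1 (0.0993), Fmo4 (0.103), Cndp1 (0.125) and Crim1 (0.128). For Slc2a2 they were Mfsd4b2 (0.129), Tnfsf10 (0.168), Anpep (0.168), Slc7a8 (0.174) and Gpr155 (0.189), where Anpep encodes a brush border aminopeptidase and Slc7a8 a basolateral amino acid carrier. All these distances rest on 6 libraries of 2 genotypes, so any gene that changed by a like amount comes near.

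**Figure D5:**
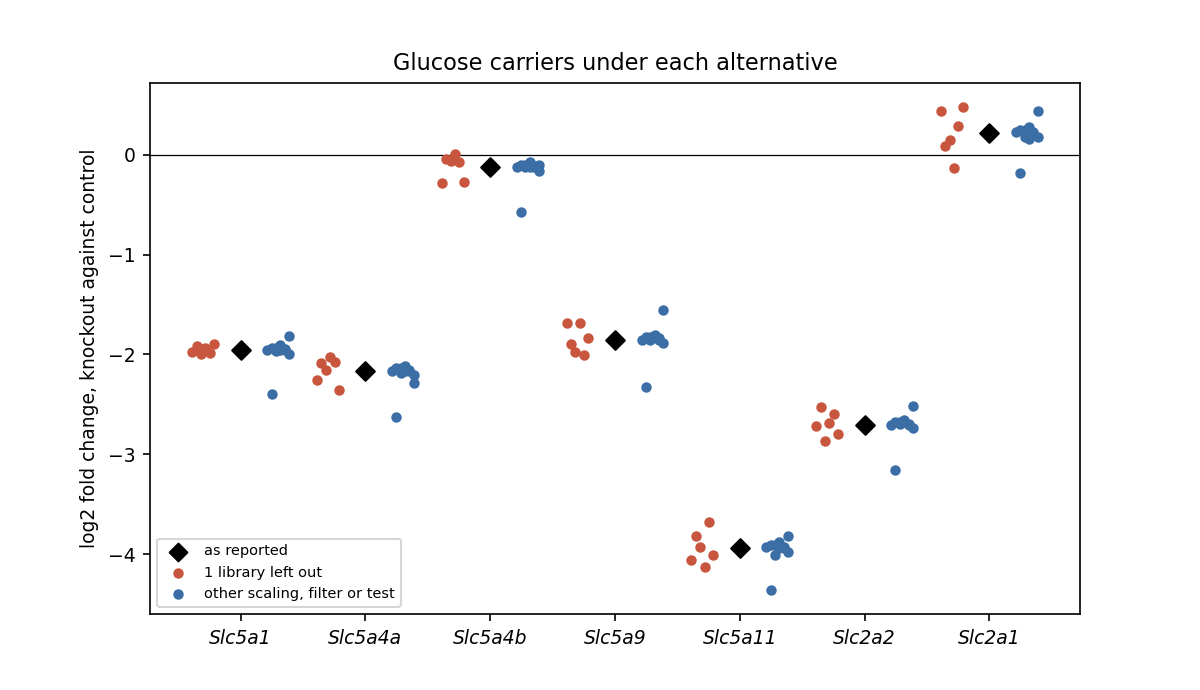
Log2 fold change of each carrier gene as reported (black diamonds), with 1 library left out (red) and with another scaling, filter or test (blue). Slc5a1, Slc5a4a, Slc5a9, Slc5a11 and Slc2a2 stay at or below -1.55 throughout, and only the points of Slc5a4b and Slc2a1 reach both sides of 0.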

How the data were processed

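RNA of 6 libraries, 3 control and 3 knockout mice, was measured as counts per gene. Main values were those of a count table deposited by the authors, which was assumed to hold raw counts. Their other deposited table, variance-stabilised expression on a log2 scale, served 1 alternative. The submitters' processing notes name STAR 2.7.9a, fastp 0.21.0, bcl2fastq, FastQC 0.11.7, DESeq2 1.23.10, featureCounts (Subread 1.6.2) and build mm10. For annotation, strand setting and read length the entry is "not given in the sources used here".

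Of 55450 identifiers, 55190 matched GENCODE M21 (mm10), and the rest took at most 0.0029% of a library. In R 4.3.3 with edgeR 4.0.16, filterByExpr kept 15028 genes, TMM set the scale of each library, and the robust quasi-likelihood test compared the genotypes (Benjamini-Hochberg, 0.05). Ratios to Slc5a1 or Slc5a4b used limma 3.58.1 (limma-trend, 0.5 added to counts). Levels per kilobase used merged exons, and coding sequences were aligned with Biopython 1.88, in place of proteins, which were not used here. Scripts were tested on simulated data. Totals of 23476031 to 46835165 put the floor of 3 counts at 0.0586 to 0.173 CPM, and intervals of counts cover counting error only. Within a genotype, no 2 libraries were alike within counting error (chi-square over its degrees of freedom at least 71.3).

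The text names all 7 members, the called genes of each list (values for at most 6 by smallest p) and the 5 genes most like Slc5a1 and Slc2a2. Members and lists were chosen with earlier results of these data known. Alternatives were other scalings, filters and tests (DESeq2 1.42.0, limma-voom), removal of each library's trend with exon length and GC content (mgcv 1.9.3), and each library left out. The second targeted gene and some genes and motifs of the lists are not reported here.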

Additional observations from a re-analysis of the deposited data

How the results depend on the processing

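The calls of Slc5a1, Slc5a4a, Slc5a9, Slc5a11 and Slc2a2 held in all 17 alternatives, with log2 fold changes of -2.40 to -1.82, -2.63 to -2.03, -2.33 to -1.55, -4.36 to -3.68 and -3.16 to -2.52. Slc5a4b passed with library-size scaling only (-0.57) and ranged from -0.28 to 0.01 with 1 library left out (0.01 without knockout 423). Slc2a1 passed in none of the 17 and turned to -0.18 with library-size scaling and ranged from -0.13 (without knockout 423) to 0.48 with 1 library left out. Relative to Slc5a1, Slc5a9 ranged from -0.01 (without knockout 476) to 0.27. The number of genes called over the whole table, 5348, was 2632 in the test against a 1.5-fold change and 3299 to 5940 with 1 library left out (3299, 3545 and 3396 without control 482, control 483 and knockout 477). With library-size scaling 1133 genes were called higher and 4554 lower, against 2596 and 2752 with TMM, and the summed carrier level was 2046 CPM per kilobase in controls (1751 with TMM) and 418 in knockouts (485). Log2 fold changes fell with exon length across genes (Spearman rho -0.37 over 15018 genes), and with that trend and GC content removed the median of the 7 carriers was -1.82. The cause of these shifts was not tested. No paired analysis was possible because the labels give no litter, batch or replicate number that the groups share. With 115 counts in knockout 477, Slc2a1 carried a counting error of 9.33%, the largest of the 7 genes.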

Other observations

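SGLT1 is also made by enteroendocrine cells, which secrete incretin hormones on glucose uptake. Of 8 enteroendocrine markers, 2 fell, none rose and 6 were not called, beside 18.3% of all tested genes called lower and 17.3% higher. The markers summed to 233 to 292 CPM in controls and 188 to 255 CPM in knockouts, with a median log2 fold change of 0.16. Gip, the hormone of K cells, measured 63.3, 85.7 and 88.4 CPM in the control mice 482, 483 and 486, against 18.9, 7.88 and 7.53 CPM in the knockout mice 423, 476 and 477 (log2 fold change -2.78, SE 0.37, edgeR adjusted p = 0.00071). Sst, the somatostatin gene of D cells, measured 33.7 ± 11.7 CPM in controls and 13.2 ± 2.46 CPM in knockouts (SD, n = 3). Its log2 fold change was -1.35 (SE 0.29). Chga, a general marker of these cells picked after its values were seen, stood at 47.8 ± 2.18 and 52.9 ± 5.52 CPM (edgeR adjusted p = 0.54). Other markers had higher means in knockouts without passing the test (edgeR). Neurod1, Pyy and Chgb had log2 fold changes of 0.81, 1.53 and 0.17 (adjusted p of 0.073, 0.059 and 0.49), with every knockout library above every control, and Cck had one of 0.65 (adjusted p = 0.11) with overlapping groups. Separate groups, in either direction, were seen in 50.3% of all tested genes.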
